A study of Mus musculus with 14 samples.

Results

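A CpG dyad is a CG step of the double helix with a cytosine on each strand, and both cytosines can carry methylation. The dyads described here are the autosomal ones for which reduced representation bisulphite sequencing (RRBS) gave a methylation percent on strand F at one base and on strand R at the next base, in each of 10 mouse libraries. Of 1307867 autosomal cytosines listed in all 10 libraries, 409426 formed 204713 dyads, and 898441 lacked their partner on the other strand. No library listed a strand R cytosine at the same base as a strand F cytosine or at 2 bases beyond it, so the listed strands paired at the offset that a CG step requires.

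The cells came from mouse tail fibroblasts of a wildtype or an AID-null genotype, as labelled. Each genotype gave 1 RRBS library of untreated fibroblasts and 1 of the whole culture after 3 weeks of forced Oct4, Sox2, Klf4 and cMyc expression. It also gave 3 libraries of clones, each picked at 2 weeks with its DNA taken after 3 weeks of reprogramming. RNA was sequenced from 1 fibroblast and 1 3-week library of each genotype. The wildtype cultures received the same 4 factors as the AID-null cultures. No label ties a clone to an animal or culture of its own. The p-values over clones thus measure the spread between these libraries, which may be technical. The 5 libraries labelled wildtype listed 27 to 48 positions on chromosome Y and the 5 labelled AID-null listed 506 to 648, so genotype and this difference cannot be told apart. Only autosomes are used below.

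Replication leaves each dyad methylated on the parental strand alone until maintenance methylation copies the mark to the daughter strand. Uhrf1 binds such hemimethylated dyads and Dnmt1 methylates the new strand. Cells that divide without this copying lose methylation by dilution and pass through a hemimethylated state, whereas removal by repair or oxidation can act on either strand. RRBS reads the strands of different molecules, so a percent on strand F and a percent on strand R are averages over cells. A strand gap, the absolute difference of the percents in percentage points, therefore shows only hemimethylation that favours the same strand in most cells. Hemimethylation that falls on either strand at random gives equal percents on both strands.

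Both strands of the dyads were covered deeply. The median number of reads per cytosine ranged over libraries from 67 in the wildtype 3-week culture to 207 in AID-null clone 3, with a minimum of 10 in the deposited files. The files give reads and not molecules, so all intervals and tests on reads cover counting error only. The mean level over both strands was 23.3% for fibroblasts of the wildtype and 23.2% for those of the AID-null genotype. At 3 weeks the whole cultures had 16.6% (wildtype) and 19.4% (AID-null). The wildtype clones had 17.5%, 18.2% and 18.5%, and the AID-null clones had 18.4%, 16.8% and 21.3%. Strand F and strand R had the same mean level in every library, with a mean difference (F minus R) of between -0.00564 and 0.0665 points.

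Dyads were less methylated than the cytosines whose partner was not listed. Over the 10 libraries the dyads averaged 19.3% and the unpartnered cytosines 31.2%, a difference of -11.9 points that had the same sign in all 10 libraries (exact two-sided sign-flip permutation test, p = 0.00195, the smallest that 10 libraries allow; adjusted p = 0.00879 over the 9 tests of this kind). The same positions were read in all 10, so the p describes agreement between libraries and not the spread over positions. The dyads also lay in denser stretches, with a median of 10 listed CpGs within 100 bp against 5 for the unpartnered cytosines. The part of this density in the difference was not tested.

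The strands agreed closely at most dyads. Pearson's r between strand F and strand R across dyads, which are not independent replicates, ranged from 0.851 to 0.909 over the libraries. Between 78.4% and 84.9% of dyads had a strand gap under 10 points. Most dyads were empty on both strands, with 67.9% to 72.1% of them at 20% or less on each. Dyads at 80% or more on both strands were 13.5% and 13.1% of all in the wildtype and AID-null fibroblasts. The 3-week cultures had 0.515% (wildtype) and 3.65% (AID-null) of such dyads, the wildtype clones 1.40% to 2.24% and the AID-null clones 3.42% to 8.83%.

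**Figure D1:**
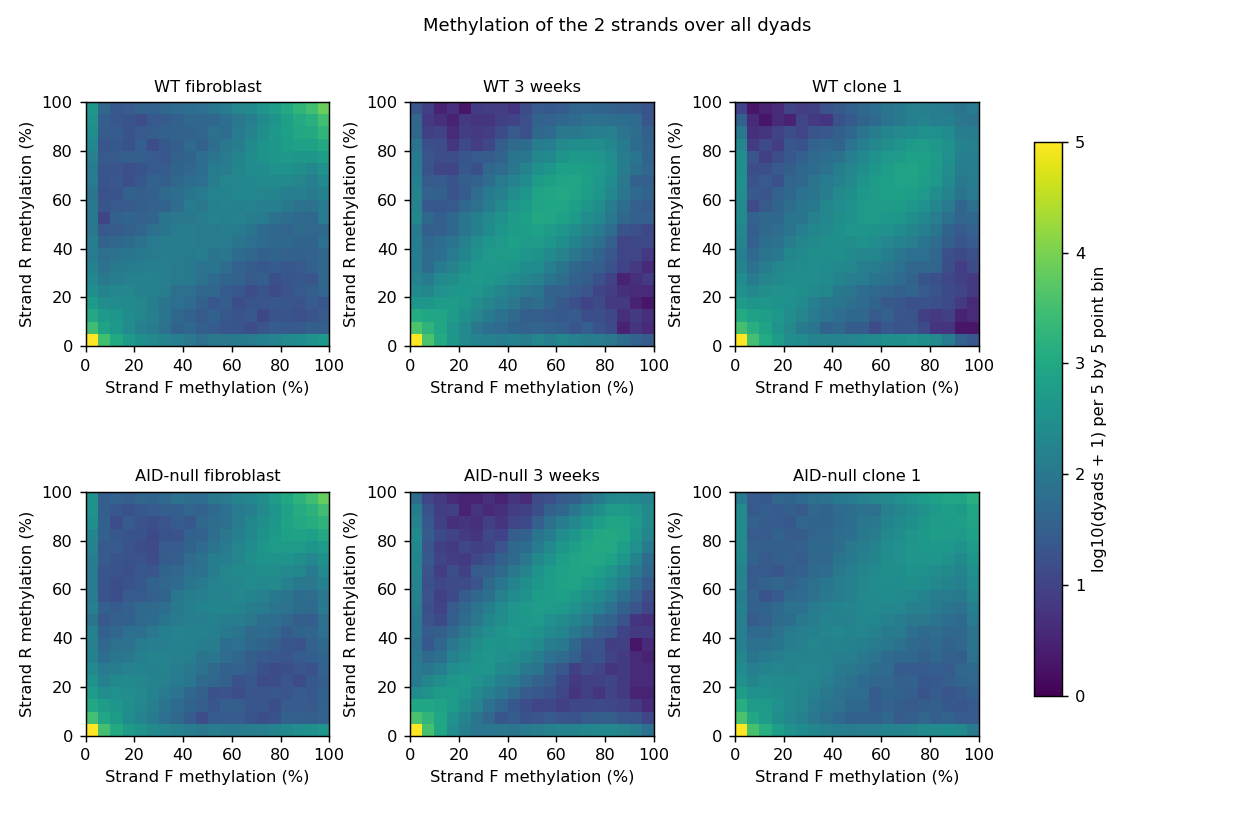
Methylation on strand F (horizontal axis, percent) against strand R (vertical axis, percent) over all 204713 dyads in 6 of the libraries, with colour giving log10 of the number of dyads plus 1 in each bin of 5 by 5 points. The fibroblast panels hold a cloud at the upper right corner that lies lower on the diagonal in the 3-week cultures, and every panel has a thin band along each axis where one strand reads close to 0.

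A small share of dyads had a large strand gap. A gap of 50 points or more was seen at 3.06% of dyads in fibroblasts of the wildtype and 3.04% in those of the AID-null genotype. At 3 weeks the share was 1.51% (wildtype) and 1.92% (AID-null). The wildtype clones had 2.53%, 2.95% and 2.42%, and the AID-null clones 3.32%, 3.27% and 2.73%. Neither strand was favoured: strand F was the higher one at 3118 of 6263 such dyads in wildtype fibroblasts and at 2660 of 5188 in wildtype clone 1. Fisher's exact test on the reads of both strands, Benjamini-Hochberg adjusted over all dyads of a library, called 6263 of them in wildtype fibroblasts (percent called 3.06), 3002 at 3 weeks in wildtype (1.47) and 3921 at 3 weeks in AID-null (1.92). The percent called was 3.04 in AID-null fibroblasts. Wildtype clones 1, 2 and 3 had 2.53, 2.95 and 2.42, and AID-null clones 1, 2 and 3 had 3.32, 3.27 and 2.73. This test compares the strands within a library and not the conditions.

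Some dyads recurred. A gap of 50 points or more was seen in 1 library at 6695 dyads, in 2 libraries at 2751 and in all 10 at 1736, and every one of the last was high on the same strand in all 10. Their high strand averaged 88.5% in wildtype fibroblasts and between 71.7% and 88.0% elsewhere. Their low strand averaged 0.804% to 2.74% and had a median of 0 in every library. Strand F was the high strand at 904 and strand R at 832.

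The 4 such dyads with the largest smallest gap show the pattern. At chromosome 7, 61031568 to 61031569 (mm9), strand R was at 99.2% and 92.5% in the wildtype and AID-null fibroblasts, at 94.4% and 100% in the 3-week cultures and between 92.2% and 100% in the 6 clones. Strand F of this dyad was at 0 in the fibroblasts and 3-week cultures and between 0 and 2.6% in the clones, on 23 to 204 reads. At chromosome 16, 29920892 to 29920893, strand R was between 89.1% and 100% and strand F between 0 and 0.4% in the 10 libraries. These dyads were picked for a large gap in one direction in all 10 libraries, so the separation of their strands in every library follows from that choice. At chromosome 1, 30146912 to 30146913, strand F was between 88.3% and 100% and strand R between 0 and 0.8%. At chromosome 4, 111211217 to 111211218, strand F was between 86.4% and 100% and strand R between 0 and 5.1%. No gene annotation of mm9 was used, so the genes at these sites are not given.

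All 4 lay at one place relative to their neighbours. The empty cytosine was 49, 50, 47 and 47 bp from the farthest listed cytosine within 60 bp on its 5′ side, and on its other side no position was listed within 50 bp. Since reads were 51 bases long, a read that starts at that farthest cytosine has the empty one among its last bases. Dyads of this geometry, with the distance between 46 and 50 bp, are called read-end dyads here. There were 8397 of them among the 204713 dyads, 4214 with the end cytosine on strand F and 4183 with it on strand R. They made up 1599 of the 1736 dyads (92.1%) with a gap in all 10 libraries.

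Where a read-end dyad had a large gap, the end cytosine was nearly always the low one. The end cytosine averaged 14.3% in wildtype fibroblasts and its partner 56.9%, and it was lower by 50 points or more at 46.4% of these dyads and higher by as much at 0.0953%. In AID-null fibroblasts the means were 14.8% and 55.8%. In the 3-week cultures the end cytosine averaged 14.2% in each, against 42.6% (wildtype) and 50.5% (AID-null) for the partner. In the 6 clones the end cytosine averaged 11.2% to 14.5% and the partner 45.7% to 57.7%. The 8397 read-end dyads held 49.5% to 88.8% of those with a gap of 50 points or more.

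The drop had sharp edges. Among cytosines with nothing listed within 50 bp beyond them and a partner at 60% or more, those 40 to 45 bp from the farthest position differed from their partner by a mean of -2.19 points in wildtype fibroblasts. Those at 47 to 50 bp differed by -76.9 points, and those at 51 to 52 bp by -0.0538 points. The other libraries gave -62.3 to -75.4 points at 47 to 50 bp and between -5.39 and 0.276 points at 51 to 52 bp. What produces the low reading at the end of the read was not tested.

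**Figure D2:**
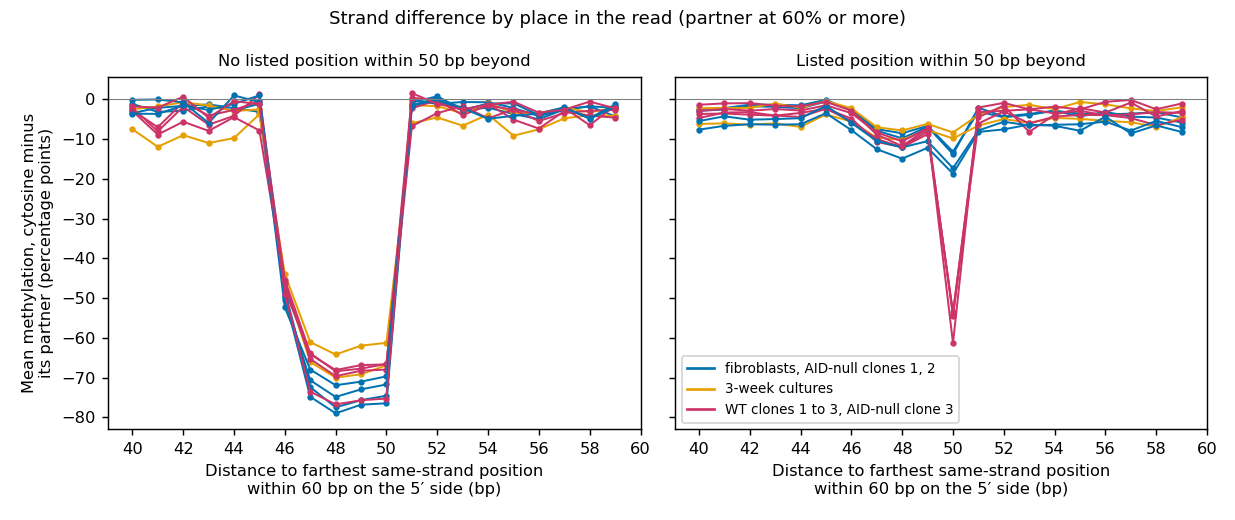
Mean methylation of a cytosine minus that of its partner (vertical axis, percentage points) against the distance to the farthest listed cytosine within 60 bp on its 5′ side (horizontal axis, bp), for cytosines whose partner is at 60% or more. Each line is 1 library, coloured by library set: with no listed position beyond (left) all 10 lie between -61.2 and -76.4 at 50 bp, and with one beyond (right) the 4 libraries of set 3 lie between -53.5 and -61.3 there while the other 6 lie between -8.37 and -18.7.

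A second division ran through the libraries. The log2 ratio of strand F to strand R reads was correlated between libraries across dyads, as a description over dyads of shared sequence. Average-linkage clustering of these correlations, cut at an imposed number of 3, gave 3 sets of libraries. Within sets r was 0.613 to 0.860 and between sets 0.125 to 0.708. A higher r within sets follows from the clustering, and the ranges overlap: the AID-null 3-week culture and wildtype clone 3, of different sets, had 0.708. Set 1 held both fibroblast libraries and AID-null clones 1 and 2, set 2 both 3-week cultures, and set 3 the wildtype clones and AID-null clone 3. The labels give no such sets. Positions where C and T percents summed to under 99 were 1.78% to 2.36% of dyad cytosines in set 1 and 0.321% to 0.477% in sets 2 and 3.

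Some dyads had a gap confined to one set. They were picked by their gaps, so their strand levels in and out of the set follow from that choice. The sets were formed from strand read ratios, so the read counts are no separate support. Of the 196316 dyads outside the read-end dyads, 312 had a gap of 50 points or more in the 4 libraries of set 3 and in no other. Their low strand averaged 0.780% to 1.24% in set 3 and 60.1% to 78.2% in the other 6 libraries, and at 294 of them it was exactly 50 bp from the farthest same-strand position. Over all dyads 30.7% had a same-strand position 46 to 50 bp to the 5′ side of either cytosine. The share at exactly 50 bp is not given. A further 322 dyads had such a gap in the 4 libraries of set 1 and in no other. In wildtype fibroblasts their high strand averaged 91.0% with a median of 52.5 reads and their low strand 20.3% with 220.5 reads. In wildtype clone 1 the same strands averaged 27.4% and 27.2% with 216 and 209.5 reads. For set 2 there were 3 such dyads. That AID-null clone 3 goes with the wildtype clones here follows from the choice of dyads. Without that choice, cytosines 50 bp from the farthest position were compared, with one listed beyond and a partner at 60% or more. They differed from their partner by -61.3 points in AID-null clone 3, and by -17.3 and -18.7 in AID-null clones 1 and 2. The wildtype clones had -53.5, -54.1 and -54.5 points.

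The comparisons below are therefore given over all dyads and over a restricted set of 33439 dyads, a choice made after these values were seen. It leaves out any dyad with a listed same-strand position 46 to 50 bp on the 5′ side of either cytosine, and any whose strands differed 2-fold or more in reads in a library. In the restricted set Pearson's r between strands was between 0.941 and 0.983 across dyads. A gap of 50 points or more was then seen at 0.158% and 0.218% of dyads in the wildtype and AID-null fibroblasts, and at 0.305% and 0.0837% in the 3-week cultures. The wildtype clones had 0.126%, 0.311% and 0.138%, and the AID-null clones 0.230%, 0.440% and 0.120%. Only 10 of the 33439 dyads had it in all 10 libraries.

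**Figure D3:**
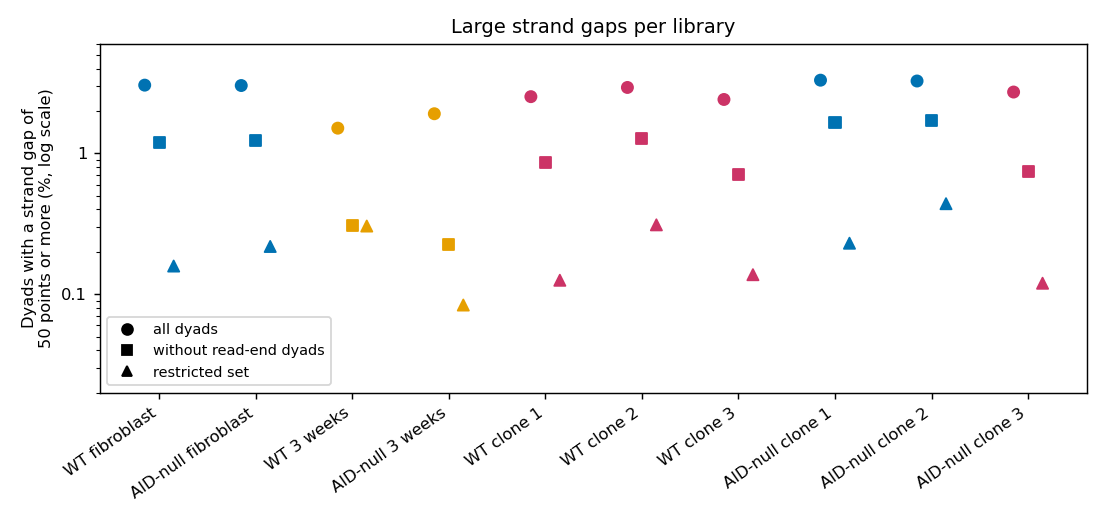
Share of dyads with a strand gap of 50 points or more (vertical axis, percent, log scale) in each of the 10 libraries, over all dyads (circles), without read-end dyads (squares) and in the restricted set (triangles), coloured by library set as in the plot of strand difference by distance. Circles lie between 1.51% and 3.32% and triangles between 0.0837% and 0.440%, and the order of the libraries changes between the symbols.

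The share of large gaps did not differ between the clones of both genotypes beyond the test's threshold. It averaged 3.11% ± 0.326 (SD, n = 3) in AID-null clones and 2.63% ± 0.276 (SD, n = 3) in wildtype clones, a difference of 0.475 points (exact two-sided permutation test, p = 0.2, where 3 against 3 cannot go below 0.1; adjusted p = 0.225). Over restricted dyads the means were 0.263% and 0.191% (exact permutation p = 0.7). Fibroblasts exceeded clones by 0.179 points over all dyads (exact permutation p = 0.536) and differed by -0.0389 points in the restricted set (exact permutation p = 0.786). The 3-week cultures, at 1.71% on average, were 1.16 points lower than the 6 clones at 2.87%, with no overlap between the groups (exact permutation p = 0.0357, the smallest for 2 against 6; adjusted p = 0.0536). Over restricted dyads this difference was -0.0329 points (exact permutation p = 0.75), and the wildtype 3-week culture lay above 4 of the 6 clones.

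Large gaps depend on depth and level, so the disagreement of strands was also measured as a strand SD. This is the root mean square strand difference after the binomial variance of both strands is subtracted, over dyads at 30% to 70% in that library, with equal weight to 4 bins of 10 points. Over all dyads it was 46.1 and 44.7 points in the wildtype and AID-null fibroblasts, 21.1 and 28.02 in the 3-week cultures. The wildtype clones had 30.6, 33.8 and 31.3 points and the AID-null clones 40.7, 37.7 and 40.1. Fibroblasts were the highest and 3-week cultures the lowest, with no overlap with the clones.

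The restricted set kept this order with far smaller values. The strand SD there was 17.9 and 18.1 points in fibroblasts, and 12.9 and 12.3 in 3-week cultures. The wildtype clones had 14.1, 17.4 and 13.9 points and the AID-null clones 16.8, 17.2 and 15.9. The 3-week cultures were lower than clones by 11.1 points over all dyads (exact permutation p = 0.0357, adjusted p = 0.0536). In the restricted set the difference was -3.30 points (12.6 against 15.9, exact permutation p = 0.0357), again with no overlap. Set 2 consists of the 3-week cultures alone, so cell state and library set cannot be told apart in this difference.

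Fibroblasts exceeded clones by 9.69 points over all dyads (exact permutation p = 0.0357, adjusted p = 0.0536) and by 2.12 points in the restricted set (against a clone mean of 15.9, exact permutation p = 0.0714). Within set 1, the restricted values were 17.9 and 18.1 in the fibroblasts and 16.8 and 17.2 in AID-null clones 1 and 2. AID-null clones exceeded wildtype clones by 7.60 points over all dyads (39.5 ± 1.63 against 31.9 ± 1.69, SD, n = 3 each; exact permutation p = 0.1, the smallest possible, adjusted p = 0.129) and by 1.48 points in the restricted set (exact permutation p = 0.4). Within set 3, AID-null clone 3 had 40.1 against 30.6 to 33.8 in wildtype clones over all dyads, and 15.9 against 13.9 to 17.4 in the restricted set.

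Dyads methylated on both strands in fibroblasts had lower levels on both strands in every later library, by nearly the same amount. Of the restricted dyads, 6110 were at 80% or more on each strand in wildtype fibroblasts, with a mean of 93.1%. After 3 weeks the wildtype culture had them at 61.2%, with a mean change of -32.0 points on strand F and -31.8 on strand R. In wildtype clones 1, 2 and 3 they averaged 63.3%, 66.2% and 66.7%. The corresponding 5903 dyads of AID-null fibroblasts, at 93.1%, averaged 73.4% in the AID-null 3-week culture and 71.3%, 65.4% and 77.1% in AID-null clones 1, 2 and 3. In AID-null clone 1, for example, the mean change was -21.6 points on strand F and -22.0 on strand R. Strand F had the larger loss at 48.9% to 50.6% of dyads in a library. The dyads were chosen by a high fibroblast reading on each strand, which by itself favours a somewhat lower later reading.

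The strands of a dyad also moved together site by site. The change on strand F and the change on strand R correlated across these dyads at r = 0.483 at 3 weeks in wildtype and at r = 0.635 in AID-null. In clones r was between 0.656 and 0.825, again as a description over dyads that share libraries. Of the 4979 dyads with at least one strand lower by 25 points or more at 3 weeks in wildtype, 3009 (60.4%) were lower by that much on both. At 3 weeks in AID-null this held for 1126 of 2444 (46.1%), and in clones for 48.97% to 58.8%. The median difference between the changes of the strands was 7.68 to 10.0 points, which still includes counting error.

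Few of these dyads ended with one strand at 80% or more and the other at 20% or less. The count was 2 of 6110 at 3 weeks in wildtype (0.0327%, 95% Wilson interval 0.00898 to 0.119), and wildtype clones 1, 2 and 3 had 0, 4 and 1 of 6110. At 3 weeks in AID-null it was 0 of 5903, which allows a share of up to 0.0508%, and the AID-null clones had 1, 3 and 1 of 5903. The 0 of wildtype clone 1 allows up to 0.0491%. Over all dyads, including read ends, the share was 0.00374% to 1.11% per library. A gap of 50 points or more was seen at 0.0169% (AID-null 3-week culture) to 1.66% (AID-null clone 2) of the restricted dyads.

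Most of the others had both strands intermediate or both still full. At 3 weeks 78.5% of the 6110 dyads were between 20% and 80% on each strand in wildtype, and 3.55% were still at 80% or more on each. Of the 5903 AID-null dyads 47.8% were then intermediate on both and 24.4% still full on both. The wildtype clones had 69.5%, 57.0% and 61.2% intermediate, and 6.96%, 11.5% and 11.8% full. The AID-null clones had 29.6%, 39.3% and 26.2% intermediate, and 34.0%, 20.3% and 49.04% full. Every AID-null library thus had a larger full share than every wildtype library of the same state, a difference in level that was not tested here. Dyads empty on both strands made up 0.491% (wildtype) and 0.102% (AID-null) at 3 weeks. They made up 2.52% to 2.85% of the dyads followed in a wildtype clone, and 2.00% to 7.12% of those in an AID-null clone. An intermediate percent on both strands can be a mixture of fully methylated and empty molecules or of molecules methylated on either strand, and these files cannot tell them apart.

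**Figure D4:**
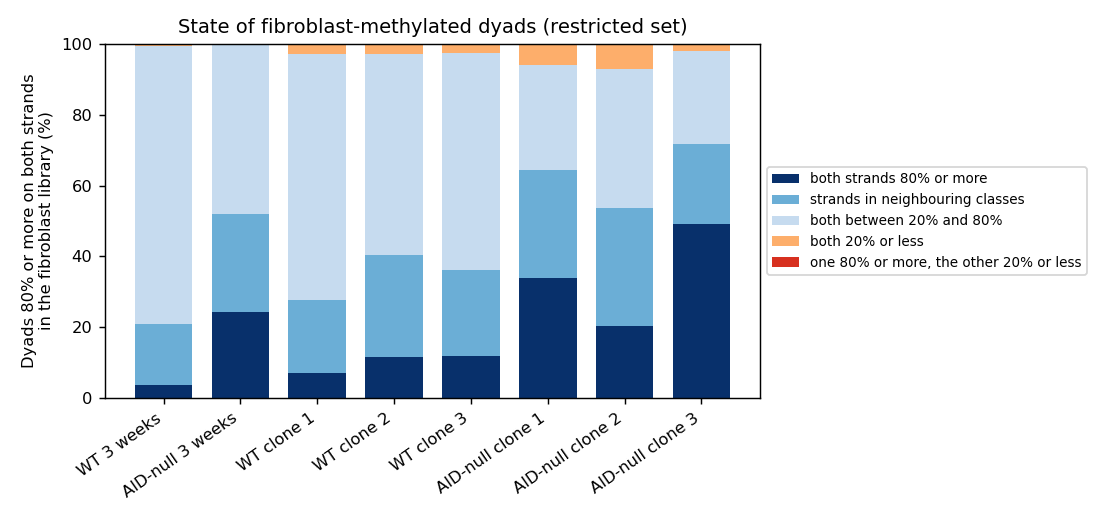
State at 3 weeks of the restricted-set dyads that were at 80% or more on both strands in the fibroblast library of the same genotype (vertical axis, percent of those dyads), for the 3-week culture and 3 clones of each genotype. The segment for one strand full and the other empty is at most 0.0655% and cannot be seen, while the segment for both strands intermediate reaches 78.5% in the wildtype 3-week culture.

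Gains were rarer, and in the restricted set most involved both strands in the clones but not in the 3-week cultures. Among restricted dyads at 20% or less on each strand in fibroblasts, 22381 in wildtype and 22339 in AID-null, 1.23% to 2.498% were higher by 25 points or more on at least one strand in a later library. Both strands were higher by that much at 61.002% to 73.4% of these in clones, and at 46.5% and 38.2% in the wildtype and AID-null 3-week cultures. Over all dyads that share ran from 36.0% in the AID-null 3-week culture to 54.9% in AID-null clone 3. The wildtype and AID-null 3-week cultures had a median of 67 and 108 reads on strand F over all dyads, fewer than any clone, and alone form set 2. Cell state, depth and library set thus cannot be told apart in these shares. A gap of 50 points or more was seen at 0 to 5 of the restricted dyads empty in fibroblasts per library.

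The next comparison asked whether dyads in the course of loss disagree more between strands than dyads that were intermediate from the start. Both classes were taken at 30% to 70% in the later library: losing dyads had been at 70% or more in fibroblasts, and already intermediate ones at 30% to 70%. Over all dyads the losing class had the smaller strand SD in all 8 later libraries, by 19.3 points on average (exact two-sided sign-flip permutation test, p = 0.00781, the smallest for 8 libraries; adjusted p = 0.0234). The classes come from 2 fibroblast libraries and share dyads across the 8. The 8 differences are thus not independent, and the p describes only their agreement in sign and size. At 3 weeks in wildtype it was 12.8 in losing and 29.4 in already intermediate dyads, and in AID-null clone 3 it was 25.1 and 49.8. A dyad with one full and one empty strand has an intermediate mean, so read-end dyads fall in the second class: 17.4% to 43.6% of it had a gap of 50 points or more. With at least 50 reads on each strand the difference was -0.122 points (exact sign-flip permutation p = 0.891).

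The sign of this difference depended on the dyads compared. Among restricted dyads the losing class was lower by 3.21 points on average, in 7 of 8 libraries (exact sign-flip permutation p = 0.0156). Without dyads that had a gap of 25 points or more in a fibroblast library, the losing class was higher by 3.55 points, and with both conditions by 0.872 points. That filter removes dyads by the quantity compared and bears mostly on the already intermediate class, so these values are a description. Among restricted dyads the strand SD of losing dyads was 12.7 and 10.9 points in the wildtype and AID-null 3-week cultures. It was 12.6, 15.8 and 12.4 points in wildtype clones, and the AID-null clones had 16.0, 17.4 and 13.2.

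**Figure D5:**
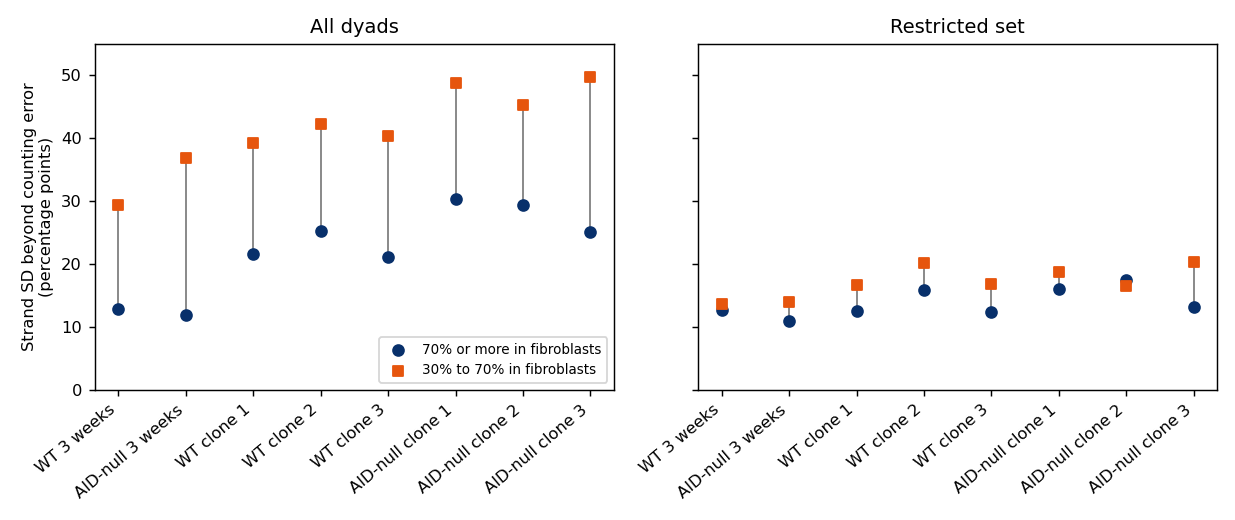
Strand SD beyond counting error (vertical axis, percentage points) in the 8 later libraries for dyads at 70% or more in fibroblasts (circles) and at 30% to 70% in fibroblasts (squares), all at 30% to 70% in the library shown, over all dyads (left) and in the restricted set (right). Squares lie above circles in every library on the left, by 15.9 to 25.1 points, and in 7 of 8 on the right, where AID-null clone 2 has the circle higher by 0.934 points.

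The strands of one dyad agreed better than the opposite strands of neighbouring dyads. Over 55283 pairs of dyads 2 to 10 bp apart, the strand SD within a dyad averaged 8.70 points over libraries, and that between strand F of one dyad and strand R of the next averaged 9.63. The difference of -0.929 had the same sign in all 10 libraries (exact two-sided sign-flip permutation test, p = 0.00195; adjusted p = 0.00879). The same pairs were read in all 10, so the p describes agreement between libraries and not the spread over pairs. Along one strand, neighbours over all dyads differed by an SD of 6.18 in the wildtype 3-week culture, 8.34 in wildtype clone 2 and 10.4 in AID-null clone 2. These lay under the 6.71, 8.44 and 10.5 within their dyads, and the remaining libraries went the other way. For 4160 restricted pairs the averages within a dyad and across strands of neighbours were 6.69 and 10.1, a difference of -3.38 (exact sign-flip permutation p = 0.00195). The restricted difference was -4.63 and -4.54 points in the wildtype and AID-null fibroblasts, and -2.28 and -3.14 in the 3-week cultures. Along one strand, cytosines of neighbouring restricted dyads differed by an SD of 6.72 in the wildtype 3-week culture, under the 7.29 within its dyads, whereas in the other 9 libraries the SD within dyads was the smaller one.

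Across the 6 clones, a fit over all dyads called 4264 whose strands differed. It used limma on the strand difference in log2((methylated reads + 1)/(unmethylated reads + 1)), with Benjamini-Hochberg adjusted p under 0.05 and a mean gap of 50 points or more. The percent called was 2.08, with 2161 higher on strand F (1.06) and 2103 on strand R (1.03). Of the 4264, 3635 were read-end dyads, 4105 had a listed same-strand position 46 to 50 bp to the 5′ side of a cytosine, and 3287 had a gap of 50 points or more in both fibroblast libraries. Over all 204713 dyads, 8397 were read-end dyads and 30.7% had a same-strand position at that distance. In the restricted set 26 of 33439 were called when that set was fitted alone.

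There were 382 called dyads with gaps under 25 points in both fibroblast libraries, and their smallest adjusted p was tied. The 4 given here share it with the dyad at chromosome 10, 39256201 to 39256202, and come first by chromosome and position. All 4 were read-end dyads. So were 165 of the 382, against 8397 of all 204713 dyads. At chromosome 2, 128341629 to 128341630, strand F was at 8.45% and 12.5% in fibroblasts, 48.3% and 42.5% in 3-week cultures. It was at 73.7%, 96.0% and 80.6% in wildtype clones, and the AID-null clones had 75.5%, 91.5% and 66.3%. Strand R of this dyad was at 0 to 1.1% throughout. The mean gap over clones was 80.6 points, a log2 difference of 9.22 ± 0.78 (SE; limma adjusted p = 2.64e-05). At chromosome 2, 168959321 to 168959322, strand F was at 24.0% and 16.3% in fibroblasts and at 80.3% to 95.8% in clones, while strand R was at 0 in all but the wildtype 3-week culture, where it was 2.9%. Both empty cytosines were at the read end, at 50 and 48 bp. At chromosome 6, 7832874 to 7832875, strand R was at 15.5% and 19.9% in fibroblasts and 72.7% to 88.9% in clones, with strand F, again the read end, at 0 to 1.6%. At chromosome 5, 141123634 to 141123635, the end cytosine on strand F was at 7.8% and 11.2% in fibroblasts, 26.7% to 32.1% in wildtype clones and 6.9% to 10.1% in AID-null clones, and strand R was at 25.5% and 15.5% in fibroblasts and 69.2% to 74.7% in clones.

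Other gaps were large in fibroblasts and small in clones. Gaps called in both fibroblast libraries in one direction, and under 25 points in all 6 clones, were found at 260 dyads. Of these, 79 were read-end dyads. In a separate and overlapping count, 150 of the 260 had a listed same-strand position 46 to 50 bp to the 5′ side of a cytosine, and all others of the 260 had none. Over all 204713 dyads, 8397 were read-end dyads and 30.7% had a same-strand position at that distance. The median strand read ratio of the 260 in fibroblasts was 2.51. Over all dyads the ratio was 2 or more at 33.3% in wildtype and 38.1% in AID-null fibroblasts. The 4 with the largest smallest gap are given next and do not stand for all 260. At chromosome 5, 93780977 to 93780978, strand F was at 96.9% and 100% in fibroblasts, 32.4% and 48.7% in 3-week cultures and 5.1% to 24.6% in clones, and strand R was at 0 to 2.3%. At chromosome 2, 168830715 to 168830716, strand F was at 96.9% and 100% in fibroblasts, 39.5% and 29.9% in 3-week cultures and 0 to 20.6% in clones, and strand R was at 0 to 7.4%. At chromosome 16, 43143079 to 43143080, strand R was at 96.8% and 99.4% in fibroblasts, 33.05% and 36.0% in 3-week cultures and 5.9% to 24.7% in clones. At chromosome 5, 114046170 to 114046171, strand R was at 99.1% and 96.6%, then 25.9% and 37.0%, and at 0 to 8.3% in clones. In all 4 the empty cytosine lay 48 to 50 bp from the farthest listed position.

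Gaps that were called in both 3-week cultures and under 25 points in both fibroblast libraries were few, at 26 dyads. Of these, 21 were read-end dyads, against 8397 of all 204713 dyads. Of the 4 with the largest smallest gap, those at chromosome 10, 39256201 to 39256202, and chromosome 7, 66043740 to 66043741, were read-end dyads whose other strand was higher at 3 weeks. At chromosome 15, 7120361 to 7120362, both strands were methylated in fibroblasts, with 88.8% and 97.2% on strand F and 74.3% and 76.0% on strand R. Strand F stayed at 74.5% to 89.8% in the later libraries, while strand R was at 10.0% and 4.8% in the 3-week cultures. It was at 12.2%, 1.6% and 10.0% in wildtype clones, and the AID-null clones had 27.6%, 27.2% and 7.4%. Strand R had 20 to 92 reads in these libraries and strand F 130 to 265, and its cytosine was 46 bp from the farthest listed position. At chromosome 11, 87983238 to 87983239, strand F was at 56.5% to 100% in all libraries and strand R at 77.7% and 81.6% in fibroblasts and 8.2% to 29.6% later, and this dyad was not in the read-end geometry. Its strand F had 23 to 120 reads and its strand R 134 to 295. None of the 26 was in the restricted set, which held 33439 of all 204713 dyads.

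No dyad was called for a strand gap that differed between genotypes in the clones (percent called 0, limma with Benjamini-Hochberg adjustment), and none had an adjusted p under 0.05, while 22555 of 204713 had an unadjusted p under 0.05. A Wald test on pooled reads called 768. Leaving out AID-null clone 3 gave 2282 calls. The 2 AID-null clones that remain then belong to set 1 and the 3 wildtype clones to set 3. Of the 2282, 91.1% had a 2-fold or larger difference in reads between strands in a library, against 74.8% of all dyads. Their median strand read ratio was 3.11 in AID-null clones 1 and 2 and 1.30 in wildtype clones. Over all dyads the ratio was 2 or more at 32.6% and 31.2% in AID-null clones 1 and 2, and at 21.3% to 23.2% in wildtype clones. The restricted set gave 0 calls with AID-null clone 3 and 0 without it, with 1985 and 2953 at an unadjusted p under 0.05.

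Level varied with local CpG density in the restricted set. Dyads with 0 to 4 other listed CpGs within 100 bp, 8259 in all, averaged 67.8% in wildtype fibroblasts and 48.6% at 3 weeks, and those with 15 to 42, 11036 in all, averaged 1.35% and 0.858%. Large gaps are not compared between these classes, since a level near 0 leaves no room for one. At 30% to 70% the strand SD of the sparse dyads was 13.1 to 19.3 points and that of dyads with 5 to 9 listed CpGs was 10.9 to 17.0. For dyads with 10 to 14 it was 11.9 to 20.1, on 113 to 258 dyads per library, and in AID-null clones 1 and 2 it was 18.1 and 20.1 against 17.1 in the sparse dyads of each. The densest class had 24 to 84 dyads at 30% to 70% per library.

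RNA of the genes that copy and change methylation was read in 1 library per genotype and state, so these differences have no replicate check. Differences are on the log2(FPKM + 1) scale, at 3 weeks minus fibroblasts, and a gene counts as higher at a difference of 1 or more, as 18.6% of 22026 genes did in wildtype and 14.6% in AID-null.

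Of the 7 maintenance genes, 6 were higher at 3 weeks in wildtype and 4 in AID-null, with medians of 2.34 and 1.26 against 0 over all genes. Uhrf1, which recognises hemimethylated dyads, had 16.8 and 330 FPKM in wildtype fibroblasts and 3-week culture (a log2 difference of 4.22) and 28.1 and 189 FPKM in AID-null (2.71). Dnmt1, the maintenance methyltransferase, had 41.6 and 214 FPKM in wildtype (2.34) and 57.1 and 138 FPKM in AID-null (1.26). Hells, a chromatin remodeller needed for methylation, differed by 4.17 in wildtype and 3.36 in AID-null, and Lig1, the replicative DNA ligase, by 3.12 and 2.57. Usp7, a deubiquitinase that acts on Uhrf1 and Dnmt1, differed by 1.78 and 0.79, and Pcna, the replication clamp, by 1.69 and 0.55. Uhrf2, the paralogue of Uhrf1, differed by -0.36 and -0.10. Between genotypes at 3 weeks none of the 7 differed by 1 or more, where 6.74% of genes were higher and 7.97% lower in AID-null, and AID-null minus wildtype ran from -0.93 (Usp7) to 0.24 (Uhrf2).

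The de novo methyltransferase Dnmt3b had 3.20 and 389 FPKM in wildtype (6.54) and 4.78 and 193 FPKM in AID-null (5.07), and its cofactor Dnmt3l differed by 6.51 and 6.39. Dnmt3a differed by 2.15 and 0.91. Among genes of active removal, Tet1, which oxidises methylcytosine, differed by 5.79 and 4.72 and Tet2 by 2.16 and 1.62. Tet3 differed by -0.61 and -1.45. The glycosylase gene Tdg had 10.7 and 7.90 FPKM in wildtype and 8.32 and 8.35 FPKM in AID-null.

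The cultures were mixtures of cells, which touches both the RNA and the intermediate percents. All 6 pluripotency markers were higher at 3 weeks in both genotypes, and Nanog was at 347 FPKM (wildtype) and 265 FPKM (AID-null) then. All 6 fibroblast markers were lower by 1 or more in wildtype, where 12.2% of genes were, and 4 of 6 in AID-null, where 12% of genes were. Col1a1, a fibroblast collagen, was at 159 FPKM (wildtype) and 1143 FPKM (AID-null) at 3 weeks. Of 5 macrophage markers 4 were lower at 3 weeks in each genotype, with Tyrobp listed at 0 (wildtype) and at 48.2 FPKM (AID-null) then. Of 4 keratinocyte markers 2 were higher in wildtype and 1 in AID-null, with Krt6a at 33.3 FPKM in the first and listed at 0 in the second. A further 1 of the 4, Trp63, was lower in each, at 10.6 FPKM in fibroblasts and listed at 0 at 3 weeks in wildtype, and at 12.6 and 0.34 FPKM in AID-null. In bulk samples fewer cells of a type and less RNA per cell cannot be told apart, and the part of cell mixture in the dyad levels was not tested.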

How the data were processed

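Methylation was measured in 10 RRBS libraries and RNA in 4. Per the file headers, the deposited RRBS tables hold a read count (coverage) for each cytosine and the percent read as C (freqC) or T (freqT), with at least 10 reads. The submitters' processing notes name Bismark, methylKit, TopHat, Cufflinks and the build mm9, without versions. The deposited RNA tables give FPKM per gene, per the file headers. Methylated reads were recovered as coverage times percent, rounded. Dyads were paired with pandas 2.3.3 and numpy 2.4.6. Permutation and Fisher tests were coded directly in Python 3.11.15, and Fisher's test was checked against scipy 1.17.1. The fit over 204713 dyads in clones used limma 3.58.1 (R 4.3.3) with a pseudocount of 1 read. On simulated clone counts of 20000 dyads, that fit recovered 100% of 200 strand differences and 96.5% of 200 genotype differences, with 0 false calls. These rates hold for the simulated counts only. In the real clones the calls for a genotype difference went from 0 to 2282 when AID-null clone 3 was left out. The simulation thus does not show that the 0 real calls came from a sensitive test. RNA used log2(FPKM + 1). Named dyads lie outside chromosome 18. They are the 4 of each kind with the largest smallest gap, or for the fit over clones the smallest adjusted p: called in all 10 libraries, new at 3 weeks, new in clones, differing by genotype (0 found) and called in fibroblasts with gaps under 25 points in clones. Ties went to the lower chromosome and position. The members, gene lists and rules were chosen with earlier results of these data known. Alternatives were the minimum of reads, the gap size, the level range, the neighbour distance, leaving out positions, chromosome 1 or a clone, and the subsets of dyads chosen after seeing the data. Chromosome 18 dyads enter the counts. A gene of the RNA lists is not reported here.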

Additional observations from a re-analysis of the deposited data

How the results depend on the processing

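Of 204713 dyads, 67522 had 50 reads on each strand in all libraries, and such a minimum changes both depth and which dyads remain. Of 186 values computed over all settings, 151 kept their direction and their side of the threshold or moved less than 1.5 times, 15 counts or medians moved further, 14 lost the threshold and 6 changed sign. The permutation tests between clones of the genotypes cannot go below 0.1. Their values could only keep their side of the threshold or change sign, which adds to the 151. Where no value shows a cause, the cause was not tested. With at least 50 reads on each strand, the difference in large gaps of fibroblasts minus clones was -0.311 points, that in strand SD was 0.879, losing minus already intermediate dyads was -0.122, the dyads called over clones were 183 and the median percent called per library was 0.606 (2.84 over all dyads). With at least 20 reads the fit over clones called 2595. Without read-end dyads, the 3-week cultures minus clones had -0.899 points of large gaps, fibroblasts minus clones a strand SD of 5.56, the fit called 628 and the median was 1.03. With strand reads within 2-fold, the genotype difference in large gaps was -0.0174 points, the 3-week cultures minus clones had a strand SD of -8.23 and the fit called 1682. In the restricted set the values were -0.0389 points for fibroblasts and -0.0329 points for 3-week cultures minus clones in large gaps, 2.12 for fibroblasts minus clones in strand SD, 26 calls (25 without AID-null clone 3) and a median of 0.188. A gap size of 25 points gave -0.774 for fibroblasts minus clones, 6758 calls and a median of 6.56. A size of 75 points gave -0.460 for 3-week cultures minus clones, 1655 calls and a median of 0.978. A level of 20% to 80% gave 7.48 for the strand SD of fibroblasts minus clones. Losing minus already intermediate dyads was 3.55 without gaps of 25 points or more in a fibroblast library and 0.872 with the restriction added. Leaving out 1 clone at a time moved the strand SD of fibroblasts minus clones between 8.66 and 10.7 and of 3-week cultures minus clones between -12.2 and -10.1, with exact permutation p of 0.0476 to 0.0952. It moved the calls for a genotype difference between 0 and 2282, the latter without AID-null clone 3, and a Wald test on pooled reads gave 768. Clones with the same number in both genotypes did not deviate together (r of -0.00418, -0.0182 and -0.00448 over restricted dyads). Clones with different numbers gave r of -0.0143 to 0.0184. AID-null clone 3 had 0.0016 and 0.00256 with wildtype clones 1 and 2, which share its library set. The check thus does not pick up a shared set and cannot decide whether clones pair by number. With the clone number as a replicate block the genotype differences were 0.475 points in large gaps and 7.60 in strand SD. Each had an exact sign-flip permutation p of 0.25, the smallest for 3 pairs, and the fit gave 0 calls.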
